A study of Mus musculus with 12 samples.

Results

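The interferon-induced GTPases described here are 10 genes chosen by name from the 2 families that mouse cells switch on with interferon: the guanylate-binding proteins Gbp2, Gbp3, Gbp4 and Gbp7, and the immunity-related GTPases Iigp1, Irgm1, Irgm2, Igtp, Ifi47 and Tgtp2. They were chosen with earlier results of these data known, and are 10 of the 54100 genes counted. Overload makes the plantaris grow by leaving it to bear more force. RNA was read from fibro-adipogenic progenitors (FAPs), the Pdgfra-expressing mesenchymal cells between muscle fibres, which were sorted from mouse plantaris at 1000 cells per tube. The 4 groups held 3 libraries each: overloaded and sham plantaris of conditional double knockout mice (cdKO, Pdgfra-CreERT2 with floxed Yap1 and floxed Taz, gene symbol Wwtr1), and overloaded and sham plantaris of control mice. Both genotypes carried the Pdgfra-CreERT2 driver, so Cre activity is limited to cells that express Pdgfra. In the text the groups are cdKO overload, control overload, cdKO sham and control sham. The labels used here do not say how Cre was induced, how old the mice were, how long after surgery the muscle was taken or whether animals were pooled. Nothing in the labels ties a library to its own animal. The p-values therefore rest on the spread between these libraries, and part of that spread may be technical.

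Guanylate-binding proteins (GBPs) are large dynamin-like GTPases, and immunity-related GTPases (IRGs) are smaller relatives that mice have in greater number than humans. Interferon gamma and type I interferons induce both families through STAT proteins and interferon regulatory factors. The proteins collect on the vacuoles of intracellular bacteria and parasites and disrupt them. Within the IRG family, Irgm1, Irgm2 and Igtp are regulators that sit on the cell's own membranes and hold the others inactive, whereas Iigp1, Ifi47 and Tgtp2 are effectors that load onto vacuoles.

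Motifs of the interferon pathway were looked up in the 250 bases before each RefSeq transcript start (GRCm38.p6). The genes were chosen by name as interferon-induced, so matches were likely in advance and are not a result about load. RefSeq promoters were matched for 8 of the 10 genes, with 9 starts, since Gbp3 has more than 1. The core of the interferon-stimulated response element (ISRE), GAAA followed by any 2 bases (NN) and GAAA again, searched on both strands, was found before 7 of the 8 genes, against 978 of 32851 mouse promoters (2.98%). The core TTCNNNGAA of the gamma-activated sequence (GAS) reads alike on both strands, and was found before 4 of the 8 genes, against 7.02% of promoters. A gene was counted if any of its starts had the core, whereas the shares of all promoters count single starts. A match is a description of the letters and does not show that a factor binds. The 3 promoters below belong to the genes with the smallest p under overload in control mice that can be shown, written 5′ to 3′ along the gene with ISRE cores in capitals. In Gbp2 the core lies on the opposite strand and so reads as its reverse complement, the 2 cores of Irgm1 overlap and run together, and Ifi47 has neither core in this window. Gbp2 is chr3:142620413-142620662 (plus strand), Irgm1 chr11:48871421-48871670 (minus strand) and Ifi47 chr11:49076337-49076586 (plus strand).
Gbp2: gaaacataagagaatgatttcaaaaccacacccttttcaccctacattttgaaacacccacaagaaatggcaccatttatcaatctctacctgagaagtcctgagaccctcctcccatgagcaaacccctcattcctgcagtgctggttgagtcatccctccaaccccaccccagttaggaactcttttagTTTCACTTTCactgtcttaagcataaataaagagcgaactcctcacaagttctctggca
Irgm1: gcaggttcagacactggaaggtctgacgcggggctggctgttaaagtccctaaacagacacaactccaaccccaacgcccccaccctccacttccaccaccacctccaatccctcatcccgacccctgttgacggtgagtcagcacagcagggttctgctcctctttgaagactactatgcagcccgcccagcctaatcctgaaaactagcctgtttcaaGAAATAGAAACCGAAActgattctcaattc
Ifi47: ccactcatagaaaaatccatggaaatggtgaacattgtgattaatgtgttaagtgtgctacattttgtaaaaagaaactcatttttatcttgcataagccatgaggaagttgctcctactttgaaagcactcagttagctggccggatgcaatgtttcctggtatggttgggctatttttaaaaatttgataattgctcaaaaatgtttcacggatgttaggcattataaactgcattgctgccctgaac

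In Igtp, Irgm2 and Tgtp2 a GAS core began exactly 11 bases before an ISRE core, in the reading direction of the gene. This spacing was noticed after the sequences had been seen. It was found in 5 of 32851 promoters (0.0152%), all on chromosome 11: Igtp, Irgm2, Tgtp1, Tgtp2 and the predicted gene Gm12185. The 37 bases around it are shown for Igtp, Irgm2 and Tgtp2, with both cores in capitals (the GAS core first) and 8 bases on either side. They lie at chr11:58199503-58199539 (plus strand) for Igtp, chr11:58214894-58214930 (plus strand) for Irgm2 and chr11:49064265-49064301 (minus strand) for Tgtp2, in GRCm38.p6. The 8 bases before the GAS core are the same in all of them, and the 8 after the ISRE core are the same in Igtp and Irgm2. With such likeness beyond the cores, these promoters do not count as separate occurrences of the spacing.
Igtp: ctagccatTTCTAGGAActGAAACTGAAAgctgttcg
Irgm2: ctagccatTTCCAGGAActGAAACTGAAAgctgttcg
Tgtp2: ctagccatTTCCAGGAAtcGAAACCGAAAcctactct

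**Figure D1:**
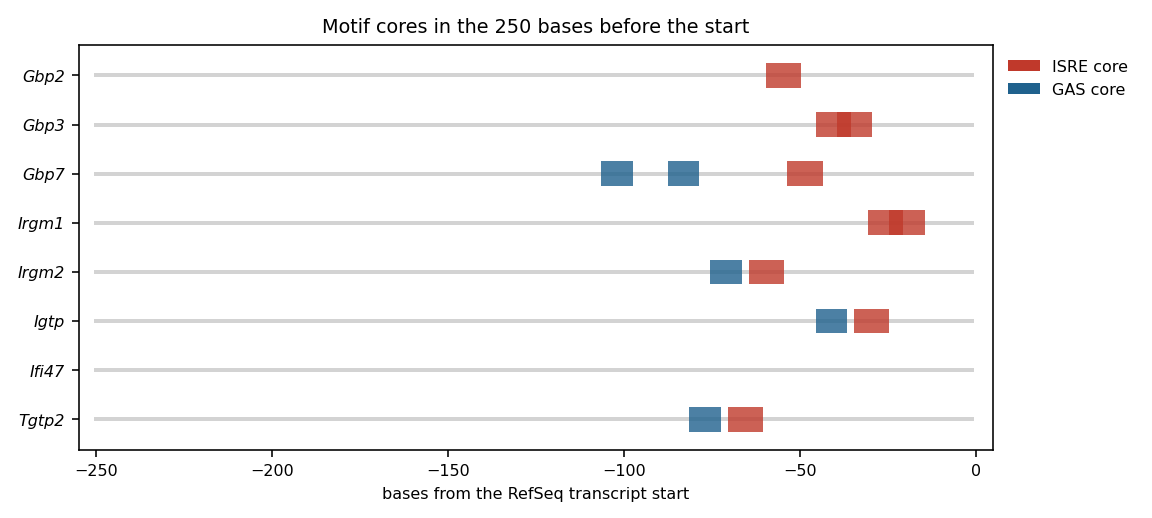
Positions of the ISRE core (red) and the GAS core TTCNNNGAA (blue) in the 250 bases before the RefSeq start of 8 GTPase genes, with the start at 0 on the horizontal axis in bases. Matches lie within 106 bases of the start, overlap one another in Gbp3 and Irgm1, and are lacking in Ifi47.

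Library totals ran from 336437 to 1564581 counts, and 8161 genes had enough counts to be tested. Levels are given as CPM, read counts scaled to 1000000 counts per library in tested genes. Wwtr1 stood at 20.1, 18.2 and 22.5 CPM in cdKO overload, 174, 125 and 125 CPM in control overload, 36.7, 40.6 and 27.1 CPM in cdKO sham, against 124, 108 and 126 CPM in control sham. Its cdKO libraries lay below the control libraries under both loads (log2 fold change -2.78 ± 0.28 (SE) overloaded, edgeR adjusted p = 1.83e-06, and -1.74 ± 0.27 sham, adjusted p = 0.00733). Yap1 was also lower but did not pass (-0.85 ± 0.32 overloaded, edgeR adjusted p = 0.586, and -0.61 ± 0.30 sham, adjusted p = 0.999), and 3′ reads outside a floxed exon do not check its deletion. All 11 progenitor markers were counted, and Pdgfra ranged from 259 to 899.6 CPM over the 12 libraries. On the first principal component (46.4% of variance) control overload replicate 1 and cdKO overload replicate 2 lay at 15.8 and 7.39, against 32.6 to 61.1 for the other overloaded libraries and -39.9 to -28.7 for sham libraries.

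Overload went with lower levels of most of the GTPases in both genotypes. Among the 8 tested genes, 6 were lower in cdKO overload than in cdKO sham and 7 were lower in control overload than in control sham, with 0 higher in either (edgeR quasi-likelihood test, Benjamini-Hochberg adjusted p under 0.05). Of all tested genes, 6.68% were lower and 6.37% higher in cdKO, and 11.0% were lower and 10.6% higher in control mice. The median log2 fold change of the 8 genes was -1.59 in cdKO (all tested genes, -0.02) and -2.81 in control mice (all tested genes, -0.05). The 3 libraries of the overloaded group lay wholly below the 3 sham libraries for 7 genes in cdKO (14.7% of all tested genes) and for 7 in control mice (18.9%). For every tested GTPase but Gbp3, all 6 overloaded libraries lay below all 6 sham libraries, which held for 551 of 8161 tested genes (6.75%). Irgm2, Igtp and Irgm1 passed the filter on low counts, which asks for 13.5 CPM in at least 3 libraries, only through their sham libraries. Its level was reached in 0 of 6 overloaded libraries for Irgm2, 1 for Igtp and 2 for Irgm1. The GTPases were also chosen with earlier results of these data known. The counts of genes that passed, the medians and the counts without overlap are therefore given as a description. Set beside the shares of all tested genes, they are no test of the families.

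**Figure D2:**
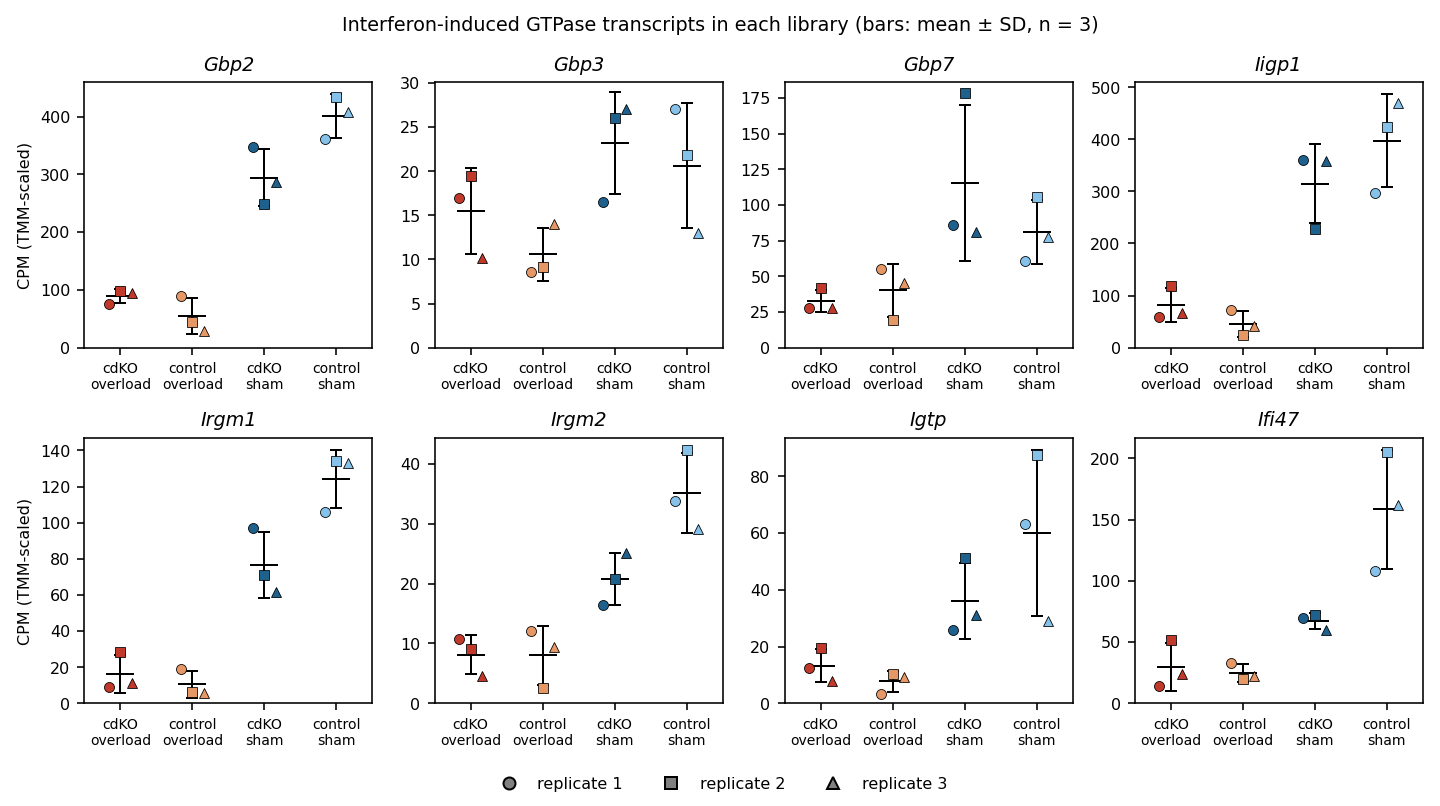
CPM of the 8 tested GTPases in each library, with 1 panel per gene and its own vertical axis from 0. Symbols are replicates, and horizontal lines with whiskers are the mean ± SD (n = 3). Overloaded libraries (red and orange) lie below sham libraries (dark and light blue) without overlap in every panel but that of Gbp3.

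Gbp2 and Gbp7 were lower under overload in both genotypes, and Gbp3 did not pass in either. Gbp2 (chromosome 3, 142620602 to 142638008, plus strand, GRCm38) is a prenylated GBP that coats pathogen vacuoles. It stood at 75.7, 98.8 and 94.3 CPM in cdKO overload, against 346, 249 and 286 CPM in cdKO sham. In control mice it stood at 89.6, 44.8 and 29.2 CPM in overloaded muscle, against 360.3, 435 and 408 CPM in sham muscle. All 6 sham libraries lay far above all 6 overloaded ones, and control overload replicate 1 was level with the cdKO overload libraries. The means were 89.6 ± 12.2 in cdKO overload, 54.5 ± 31.4 in control overload, 294 ± 49.3 in cdKO sham, against 401 ± 37.7 CPM in control sham (SD, n = 3). The log2 fold change with overload was -1.70 ± 0.29 in cdKO (edgeR adjusted p = 3.70e-04) and -2.93 ± 0.30 in control mice (adjusted p = 2.85e-07).

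Gbp7 (chromosome 3, 142530342 to 142550149, plus strand) has been tied in mice to the assembly of the phagocyte oxidase on pathogen vacuoles. It was at 27.8, 41.6 and 28.1 CPM in cdKO overload, against 86.2, 178 and 81.2 CPM in cdKO sham. The control libraries held 55.1, 19.5 and 45.5 CPM under overload, against 60.8, 105 and 77.8 CPM after sham surgery. The value of cdKO sham replicate 2 stood far above the rest of its group, and in control mice the highest overloaded library came close to the lowest sham library. Gbp7 was lower in cdKO (-1.85 ± 0.37, edgeR adjusted p = 0.00207) and in control mice (-1.12 ± 0.38, adjusted p = 0.0356). The call in control mice was lost without control overload replicate 2 (-0.69, edgeR adjusted p = 0.236), control overload replicate 3 (-1.25, adjusted p = 0.0514), control sham replicate 2 (-0.81, adjusted p = 0.217) or control sham replicate 3 (-1.12, adjusted p = 0.0621). It was also lost with DESeq2 (-1.06, adjusted p = 0.0525) and with the replicate number as a block in edgeR (-1.06, adjusted p = 0.0542).

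Gbp3 (chromosome 3, 142560026 to 142573209, plus strand) lies between Gbp7 and Gbp2 in the same cluster. It was at 16.99, 19.5 and 10.1 CPM in cdKO overload, against 16.5, 26.0 and 27.1 CPM in cdKO sham. In control mice it was at 8.61, 9.09 and 14.01 CPM under overload, against 27.0, 21.9 and 13.0 CPM in sham muscle. The groups overlapped in both genotypes. Gbp3 did not pass in cdKO (-0.60 ± 0.42, 95% interval -1.46 to 0.26, edgeR adjusted p = 0.379) or in control mice (-0.996 ± 0.45, -1.92 to -0.07, adjusted p = 0.114). These rest on 4 to 25 counts per library. Gbp4 (chromosome 5, 105115767 to 105139586, minus strand), a GBP of the other mouse cluster, had 1, 4 and 1 counts in cdKO overload, 3, 1 and 4 in control overload, 3, 3 and 3 in cdKO sham, against 2, 4 and 2 in control sham. At this depth no difference in Gbp4 was detectable, and it was not tested.

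The 3 IRG regulators were lower under overload in control mice, and 2 of them in cdKO. All 3 were tested only through their sham libraries, so their values are a description. Irgm1 (chromosome 11, 48861968 to 48871683, minus strand) is needed for the survival of blood stem cells and T cells during interferon responses in mice and restrains the effector IRGs. It was at 9.27, 28.6 and 11.2 CPM in cdKO overload, against 97.2, 70.8 and 61.9 CPM in cdKO sham. In control mice it was at 19.0, 6.49 and 5.84 CPM under overload, against 106, 134 and 133 CPM in sham muscle. Nothing overlapped between loads, and within each overloaded group 1 library (cdKO replicate 2, control replicate 1) stood above the other libraries of that group. Irgm1 had the most negative log2 fold change of the tested GTPases in both genotypes, at -2.20 ± 0.38 in cdKO (edgeR adjusted p = 4.88e-04) and -3.73 ± 0.40 in control mice (adjusted p = 5.42e-07). The mean CPM was 4.68-fold lower with overload in cdKO and 11.9-fold lower in control mice. The overloaded means rest on 6, 22 and 10 counts in cdKO and 11, 10 and 5 counts in control mice. Without cdKO overload replicate 2 the fold change in cdKO was -2.82 on the log2 scale.

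Igtp (chromosome 11, 58199556 to 58207591, plus strand), also called Irgm3, guards lipid droplets and endoplasmic reticulum membranes. It stood at 12.4, 19.5 and 7.86 CPM in cdKO overload, against 25.7, 51.0 and 30.9 CPM in cdKO sham. Control libraries held 3.45, 10.4 and 9.34 CPM under overload, against 63.1, 87.5 and 29.2 CPM after sham surgery. The overloaded values rest on 8, 15 and 7 counts in cdKO and 2, 16 and 8 counts in control mice. The sham controls were spread widely, with replicate 3 at the level of the cdKO sham libraries. Igtp was lower in cdKO (-1.48 ± 0.44, edgeR adjusted p = 0.0261) and in control mice (-2.87 ± 0.44, adjusted p = 5.24e-05). The call in cdKO was lost without cdKO overload replicate 1 (-1.45, edgeR adjusted p = 0.0944), cdKO overload replicate 3 (-1.19, adjusted p = 0.161) or cdKO sham replicate 2 (-1.13, adjusted p = 0.178).

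Irgm2 (chromosome 11, 58199618 to 58222782, plus strand) overlaps Igtp on the same strand in the annotation, so reads in shared sequence may be lost or assigned to either. It is a regulator found on the Golgi apparatus and on vacuoles. It was at 10.8, 9.10 and 4.49 CPM in cdKO overload, against 16.5, 20.8 and 25.1 CPM in cdKO sham. In control mice it was at 12.1, 2.60 and 9.34 CPM under overload, against 33.8, 42.4 and 29.2 CPM in sham muscle. These are 4 to 8 counts per overloaded library, against 9 to 31 per sham library. Irgm2 did not pass in cdKO (-1.37 ± 0.50, 95% interval -2.41 to -0.34, edgeR adjusted p = 0.0724), although the groups did not overlap, and was lower in control mice (-2.32 ± 0.49, adjusted p = 0.00137). Without control overload replicate 2, which had the lowest CPM of all, the fold change in control mice was -1.72, and Irgm2 passed in cdKO (-1.34, edgeR adjusted p = 0.0486).

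The effector IRGs that could be tested were lower in both genotypes. Iigp1 (chromosome 18, 60376027 to 60392634, plus strand), also called Irga6, is an abundant effector that forms oligomers on the vacuole membrane. It was at 58.7, 118 and 67.4 CPM in cdKO overload, against 359, 228 and 358 CPM in cdKO sham. In control mice it was at 72.4, 24.0 and 40.9 CPM under overload, against 297, 424 and 469.8 CPM in sham muscle. Every sham library was above every overloaded library, and cdKO overload replicate 2 was the highest of the overloaded ones. The log2 fold change was -1.94 ± 0.33 in cdKO (edgeR adjusted p = 5.96e-04) and -3.20 ± 0.35 in control mice (adjusted p = 1.86e-06).

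Ifi47 (chromosome 11, 49076587 to 49096974, plus strand), also called Irgd, was at 13.9, 52.0 and 23.6 CPM in cdKO overload, against 69.7, 71.8 and 59.9 CPM in cdKO sham. In control mice it was at 32.7, 19.5 and 22.2 CPM under overload, against 108, 205 and 162 CPM in sham muscle. The control sham libraries were the highest of the 12, and cdKO overload replicate 2 came close to the cdKO sham libraries. The log2 fold change was -1.16 ± 0.36 in cdKO (edgeR adjusted p = 0.0323) and -2.74 ± 0.35 in control mice (adjusted p = 7.89e-06). The call in cdKO was lost without cdKO overload replicate 1 (-0.85, edgeR adjusted p = 0.172), cdKO overload replicate 3 (-0.996, adjusted p = 0.164), cdKO sham replicate 1 (-1.15, adjusted p = 0.0707) or cdKO sham replicate 2 (-1.13, adjusted p = 0.0882). Without cdKO overload replicate 2 it was -1.77 (edgeR adjusted p = 0.00174).

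Tgtp2 (chromosome 11, 49057194 to 49064206, minus strand), an effector also called Irgb6, had 0 counts in all 12 libraries, as did its near-identical neighbour Tgtp1. Of the 451 words of 50 bases in the last 500 bases of the Tgtp2 transcript, 0 were unique to the gene in the GENCODE M21 transcripts (GRCm38), and they were shared with Tgtp1. For Gbp2, Gbp7, Iigp1, Irgm2 and Igtp all such words were unique, and for Gbp3, Irgm1 and Ifi47 96.7%, 96.0% and 95.5% were. For Gbp4 the share was 80.6%, with the rest found in Gbp6 or Gbp9, among others. Besides Irgm2 and Igtp, same-strand overlaps in the annotation are Ifi47 with Olfr56, Gbp7 with Gm43802, and Gbp4 with Gbp8 and Gbp9. Reads in shared sequence may be lost or assigned to either gene there too. A count of 0 for a gene without unique 3′ sequence gives no upper limit on its RNA, and no value is drawn for Tgtp2.

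**Figure D3:**
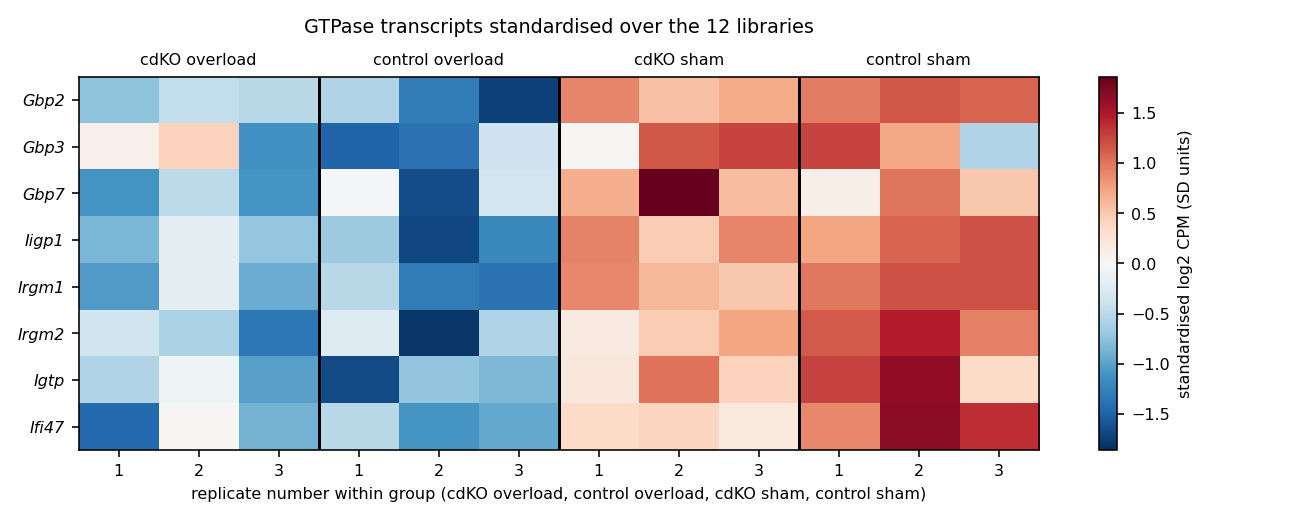
Log2 CPM of the 8 tested GTPases, standardised per gene over the 12 libraries (colour scale in SD units, red high and blue low), with genes in rows and libraries in columns by group. Overloaded columns are mostly blue and sham columns mostly red, and control sham replicate 2 is the highest library of its group for 6 of the 8 genes.

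The correlation of each gene with the mean standardised profile of the other 7 was between 0.692 (Gbp3) and 0.958 (Irgm1) over the 12 libraries, which share the contrast between loads. Within the 6 overloaded libraries it was between 0.20 (Igtp) and 0.90 (Iigp1), and within the 6 sham libraries between -0.16 (Gbp7) and 0.87 (Igtp). Library depth differed among these points and was not removed. In cdKO overload replicate 2 was the highest library for 7 of the 8 genes, in control overload replicate 1 was for 6, and in control sham replicate 2 was for 6. The summed CPM of the 10 genes was 227, 393 and 248 in cdKO overload, 298, 137 and 181 in control overload, 1023, 899 and 936 in cdKO sham, against 1061, 1460.1 and 1328 in control sham. Replicates 2 of cdKO overload and 1 of control overload, which had the highest sums of their groups, are also the overloaded libraries with the lowest scores on the first principal component. Without both of them 6 of the 8 genes were lower in cdKO and 7 in control mice, and Irgm1 was at -2.85 and -4.27 on the log2 scale in cdKO and control mice.

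By group mean, 6 of the 8 genes had the order control sham, cdKO sham, cdKO overload, control overload from high to low. Gbp3 had cdKO sham above control sham, and Gbp7 had both pairs of genotypes turned round. Neighbouring cdKO overload and control overload overlapped for all 8 genes. Of all tested genes, 5.31% lay lower and 5.38% higher in cdKO overload without overlap. The sham genotypes overlapped for Gbp3, Gbp7, Iigp1 and Igtp. The step from the lower sham group to the higher overloaded group was free of overlap for all but Gbp3. All 6 overloaded libraries lay below all 6 sham libraries for 6.75% of all tested genes. The order of the 4 groups was not counted over all tested genes, and the 8 genes share the same 12 libraries. It is therefore a description.

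Genotype was then compared under each load, which asks whether loss of Yap1 and Taz alters these genes. In overloaded muscle 0 of the 8 genes passed in edgeR (0.0368% of all tested genes did), and 0 passed in DESeq2 or limma voom. At an unadjusted p under 0.05 there were 2, Gbp2 and Iigp1 (6.97% of all tested genes), both with a positive sign. The log2 fold change of cdKO overload over control overload was 0.77 ± 0.30 for Gbp2 (95% interval 0.15 to 1.40, edgeR adjusted p = 0.618) and 0.92 ± 0.36 for Iigp1 (0.18 to 1.66, adjusted p = 0.618). It was positive for 7 of the 8 genes and negative for Gbp7 (-0.22 ± 0.39), and was positive for 4325 of 8161 tested genes. The highest upper limit was 1.80, for Irgm1, so differences of that size are not excluded by these libraries. The signs of the smaller differences hung on single libraries: without control overload replicate 2, Irgm2 was at -0.41, and without cdKO overload replicate 2, Ifi47 was at -0.31. Over all genes, 34 were called without control overload replicate 1 in place of 3.

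In sham muscle the signs were mostly the other way. The cdKO sham libraries lay below the control sham libraries without overlap for Gbp2, Irgm1, Irgm2 and Ifi47, or 4 of the 8 genes (4.45% of all tested genes), and 0 of the 8 passed in edgeR (0.0123% of all tested genes did), DESeq2 or limma voom. At an unadjusted p under 0.05 there were 2, Irgm1 and Ifi47 (4.09% of all tested genes). Ifi47 averaged 67.1 ± 6.35 CPM in cdKO sham and 158 ± 48.6 CPM in control sham, a log2 fold change of -1.24 ± 0.33 (95% interval -1.91 to -0.57, edgeR adjusted p = 0.999). Irgm1 averaged 76.6 ± 18.4 CPM in cdKO sham and 124 ± 15.9 CPM in control sham (-0.70 ± 0.33, -1.37 to -0.03, edgeR adjusted p = 0.999). The log2 fold change was negative for 6 genes and positive for Gbp3 (0.14 ± 0.43) and Gbp7 (0.51 ± 0.35). Over all tested genes it was negative for 3970 of 8161. Averaged over both loads 0 of the 8 genes passed in edgeR (0.0123% of tested genes), DESeq2 or limma voom, 0 were at an unadjusted p under 0.05 (5.32%), and the values lay between -0.45 (Ifi47) and 0.34 (Gbp3).

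The interaction sets the effect of load in cdKO against its effect in control mice. It was positive for 7 of the 8 genes, which is a smaller drop in cdKO, and negative for Gbp7 (-0.73 ± 0.53). Over all tested genes it was positive for 4221 of 8161. In edgeR 0 of the 8 passed (0% of all tested genes), and 0 did in DESeq2 or limma voom, while 5 were at an unadjusted p under 0.05 (5.23%). These were Ifi47 at 1.58 ± 0.50 (95% interval 0.54 to 2.62, edgeR adjusted p = 0.659), Irgm1 at 1.53 ± 0.57 (0.35 to 2.71, adjusted p = 0.884), Igtp at 1.39 ± 0.64 (0.08 to 2.70, adjusted p = 0.927), Iigp1 at 1.257 ± 0.47 (0.28 to 2.24, adjusted p = 0.884) and Gbp2 at 1.23 ± 0.41 (0.39 to 2.07, adjusted p = 0.732). All 5 genes share the same 12 libraries, so they do not count as separate observations. Irgm1 and Igtp were tested only through their sham libraries, so their values are a description. Without cdKO overload replicate 2 the values for Ifi47 and Irgm1 were 0.93 and 0.87. With the Y-linked share of counts as a covariate Gbp2 and Iigp1 were at 0.45 and 0.48 and Igtp at 2.88. A different response of these genes in cdKO was not shown in these data, nor was it excluded, since the intervals reach 2.71.

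**Figure D4:**
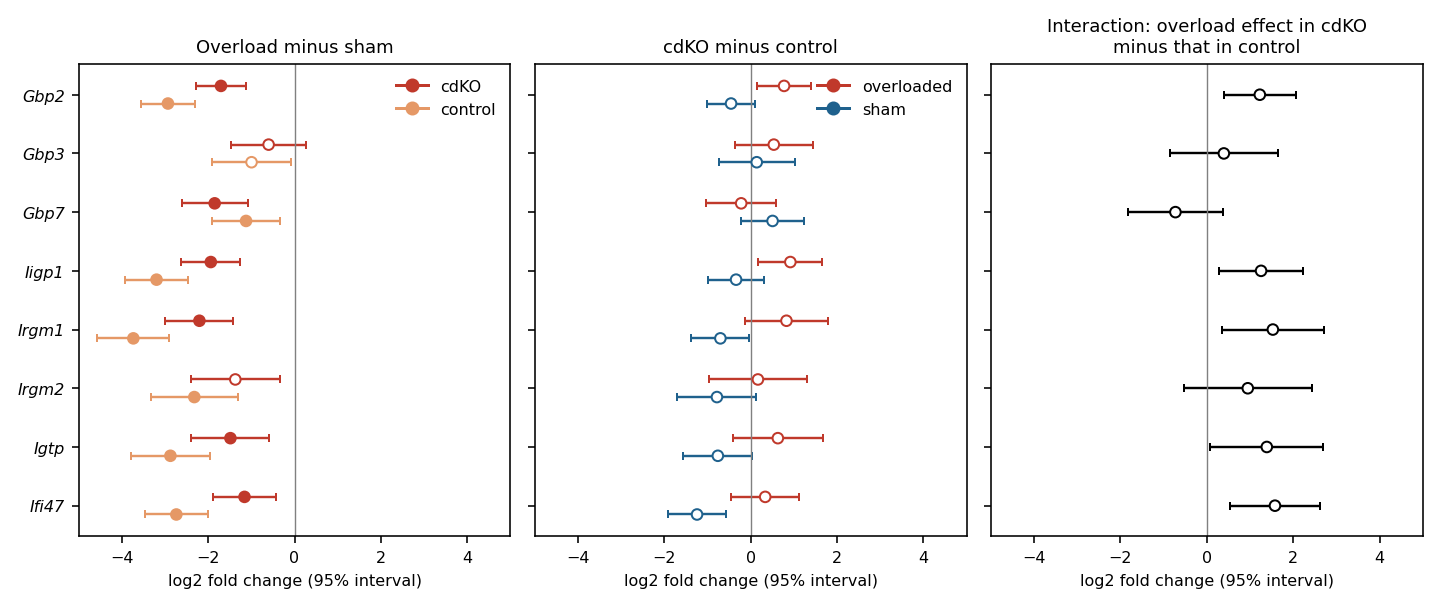
Log2 fold changes of the 8 tested GTPases with 95% intervals, for overload minus sham in cdKO (red) and control mice (orange), cdKO minus control in overloaded (red) and sham muscle (blue), and the interaction (black). Filled points passed at an edgeR adjusted p under 0.05 and open points did not. Filled points are found in the comparison of loads, where all lie left of 0.

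The other genes of the 2 families were scarcely counted. Of 17 other GBP and IRG genes 1 was tested, the IRG gene F830016B08Rik. It was at 3.09, 10.4 and 2.25 CPM in cdKO overload, against 27.5, 28.1 and 11.6 CPM in cdKO sham, and at 3.45, 0.649 and 2.33 CPM in control overload, against 13.5, 36.9 and 19.4 CPM in control sham. It was lower in cdKO (-2.09 ± 0.63, edgeR adjusted p = 0.0290) and in control mice (-3.66 ± 0.73, adjusted p = 8.66e-04). Before TMM scaling it reached the 13.5 CPM of the expression filter in 0 of 6 overloaded and 4 of 6 sham libraries, so it was tested only through its sham libraries and these values are a description. Gbp5, a GBP that promotes inflammasome activation, had 1 to 10 counts per library, and Tgtp1 and 9930111J21Rik1 had 0 throughout. Of Mx1, Mx2, Gvin1 and Gm4070, larger interferon-induced GTPases, 0 were tested, with 0 to 2 counts of Mx1 and 0 to 10 of Mx2.

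Of 15 interferon and inducing cytokine genes 0 were tested and 9 had 0 counts in every library, among them Ifng and Ifnb1, the genes of interferon gamma and interferon beta. Of 10 tested receptors, kinases and STATs, 3 were lower and 0 higher in cdKO, and 4 were lower and 1 higher in control mice. Over all tested genes, 6.68% were lower and 6.37% higher in cdKO, and 11.0% were lower and 10.6% higher in control mice. Stat2, a subunit with Irf9 of the complex that binds the ISRE, was at 15.4, 27.3 and 6.74 CPM in cdKO overload, against 58.7, 55.2 and 67.7 CPM in cdKO sham. In control mice Stat2 was at 19.0, 9.74 and 9.34 CPM under overload, against 78.8, 76.6 and 84.2 CPM in sham muscle. The loads did not overlap in either genotype, and Stat2 was lower in cdKO (-1.88 ± 0.37, edgeR adjusted p = 0.00143) and in control mice (-2.73 ± 0.38, adjusted p = 1.59e-05). Irf9 averaged 33.5 ± 21.8 CPM in cdKO overload, 37.2 ± 11.4 in control overload, 83.6 ± 17.01 in cdKO sham, against 118 ± 14.7 in control sham (SD, n = 3). It was lower in cdKO (-1.31 ± 0.34, edgeR adjusted p = 0.0114) and in control mice (-1.70 ± 0.33, adjusted p = 7.21e-04).

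The subunits of the interferon gamma receptor differed in sign. Ifngr1, the ligand-binding chain, averaged 139 ± 7.14 CPM in cdKO overload, 137 ± 33.7 in control overload, 280.2 ± 37.9 in cdKO sham, against 279 ± 20.9 in control sham. It was lower with overload in cdKO (-1.02 ± 0.23, edgeR adjusted p = 0.00533) and in control mice (-1.03 ± 0.24, adjusted p = 0.00258). Ifngr2, the signalling chain, averaged 97.7 ± 23.9 CPM in cdKO overload, 128 ± 45.6 in control overload, 53.7 ± 10.1 in cdKO sham, against 43.4 ± 7.10 in control sham. It was higher with overload in control mice (1.56 ± 0.31, edgeR adjusted p = 6.78e-04) and did not pass in cdKO (0.85 ± 0.29, 95% interval 0.25 to 1.45, adjusted p = 0.0549).

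Of 4 tested interferon regulatory factors, 1 was lower in cdKO and 2 were lower in control mice, with 0 higher (6.68% and 11.0% of all tested genes were lower). Irf1, which drives many GBP genes in response to interferon gamma, was at 24.7, 65.0 and 30.3 CPM in cdKO overload, against 183, 234 and 257 CPM in cdKO sham. In control mice Irf1 was at 93.0, 31.8 and 14.01 CPM under overload, against 295, 316 and 220.3 CPM in sham muscle. As with the GTPases, cdKO overload replicate 2 and control overload replicate 1 were the highest of their groups. Irf1 was lower in cdKO (-2.48 ± 0.49, edgeR adjusted p = 0.00545) and in control mice (-2.69 ± 0.49, adjusted p = 0.00167). Irf8, better known from myeloid cells, was lower in control mice (-2.17 ± 0.62, edgeR adjusted p = 0.0142), where control sham replicate 3 overlapped the overloaded libraries, and was at -0.53 ± 0.59 in cdKO. It reached the filter's 13.5 CPM in 2 of 6 overloaded and 3 of 6 sham libraries, so it was tested through its sham libraries and its values are a description. Irf2 and Irf3 did not pass, and Irf5, Irf7, Nlrc5, Ciita and Batf2 had 0 to 10 counts per library and were not tested.

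Of 7 tested feedback inhibitors, 1 was lower in cdKO and 2 in control mice, beside 6.68% and 11.0% of all tested genes. Socs1, an interferon-induced inhibitor of the JAK kinases, averaged 55.0 ± 27.0 CPM in cdKO overload, 49.1 ± 6.91 in control overload, 81.8 ± 4.34 in cdKO sham, against 150.0 ± 29.7 in control sham. It was lower with overload in control mice (-1.61 ± 0.29, edgeR adjusted p = 2.62e-04) and did not pass in cdKO (-0.57 ± 0.29, adjusted p = 0.209). Socs3, which restrains STAT3, was lower in cdKO (-1.98 ± 0.50, edgeR adjusted p = 0.0205) and in control mice (-2.79 ± 0.52, adjusted p = 0.00189). Ptpn1 and Cish did not pass in either genotype.

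Of 14 tested genes of lipidation, prenylation and ubiquitin-like loading, 1 was lower in cdKO and 3 in control mice. In cdKO that is near the 6.68% of all tested genes that were lower, and in control mice 11.0% of all tested genes were lower. Map1lc3b, an ATG8 protein of autophagosome membranes, was lower in cdKO (-0.82 ± 0.24, edgeR adjusted p = 0.0244) and in control mice (-1.10 ± 0.24, adjusted p = 0.00198). Its relatives Map1lc3a (-1.73 ± 0.38, edgeR adjusted p = 0.00180) and Gabarapl1 (-0.88 ± 0.24, adjusted p = 0.0102) were lower in control mice. Gabarap was at 0.67 ± 0.25 in cdKO and -0.10 ± 0.25 in control mice. Of the inflammasome genes that act with GBPs 2 of 6 were tested. Casp4, the mouse sensor of cytosolic lipopolysaccharide, was lower in control mice (-1.48 ± 0.36, edgeR adjusted p = 0.00434) and did not pass in cdKO (-0.77 ± 0.34, adjusted p = 0.145), and Pycard did not pass in either. In the comparisons of genotype and in the interaction, 0 genes of these pathway lists passed in edgeR.

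**Figure D5:**
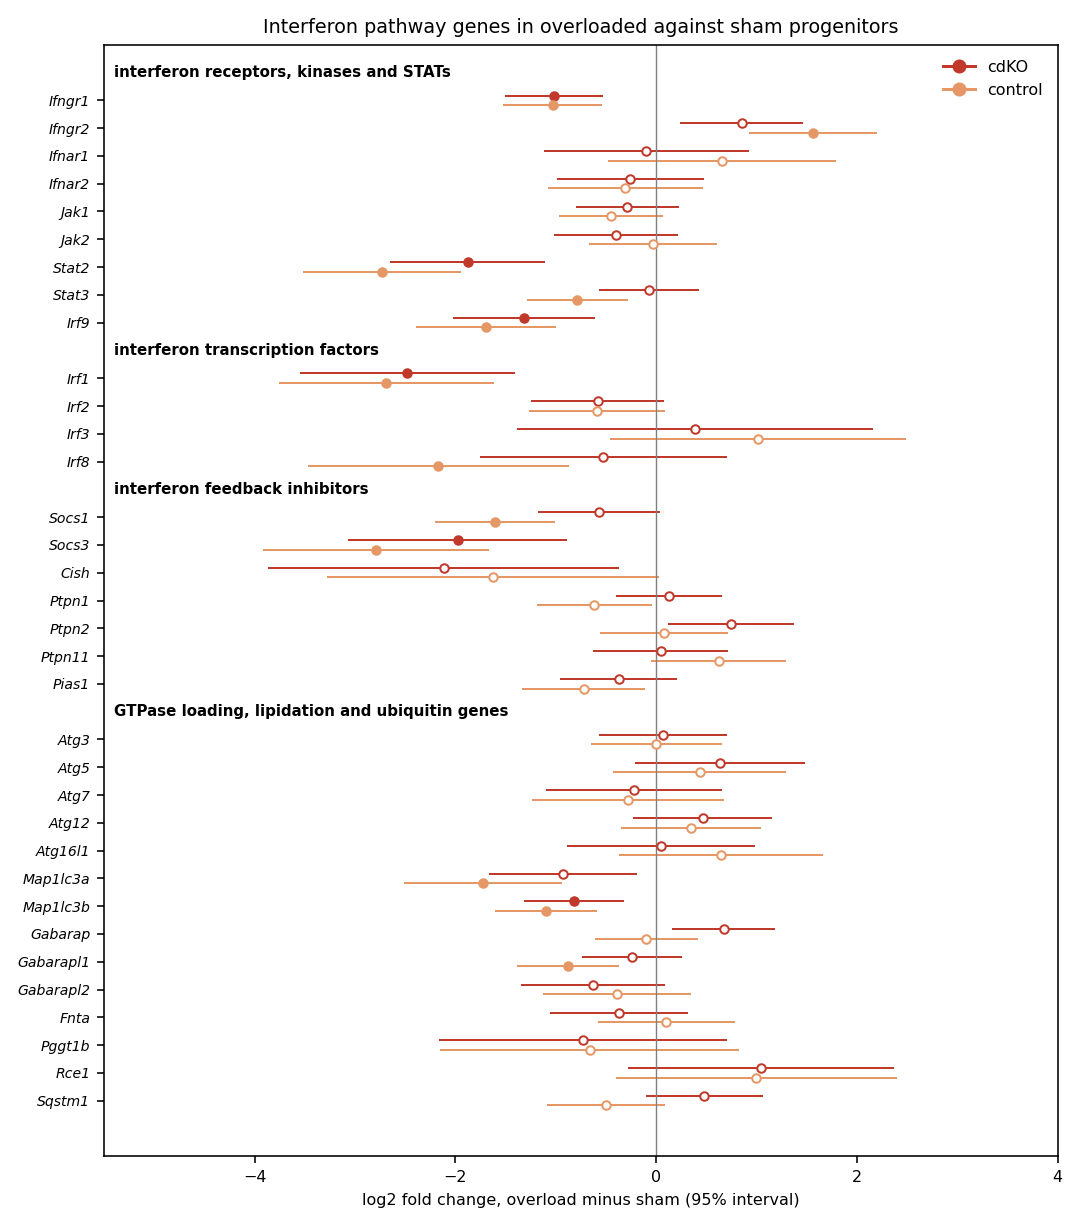
Log2 fold changes of overload over sham with 95% intervals for interferon pathway genes, in cdKO (red) and control mice (orange). Filled points passed at an edgeR adjusted p under 0.05. Stat2, Irf9, Irf1, Socs3, Ifngr1 and Map1lc3b are filled in both genotypes left of 0, and Ifngr2 is filled right of 0 in control mice.

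In sorted bulk samples a change in the share of 1 kind of cell cannot be told apart from a change in RNA per cell. Of 11 macrophage markers and of 13 T, NK and B cell markers 0 were tested. The summed macrophage markers ranged from 6.74 to 37.7 CPM in cdKO overload, 7.004 to 27.6 in control overload, 11.6 to 23.9 in cdKO sham, against 20.3 to 42.1 in control sham. The summed T, NK and B cell markers ranged from 13.0 to 24.7, 0 to 25.8, 19.8 to 34.8 and 17.8 to 58.3 CPM in the same order of groups, with Gzma at 0 throughout. The 6 pan-leukocyte markers summed to 5.61 to 39.0 CPM in cdKO overload, 0 to 39.6 in control overload, 3.12 to 42.5 in cdKO sham, against 16.2 to 40.5 in control sham. Of these 6, Ptprc was tested and did not pass (edgeR adjusted p = 0.982 in cdKO and 0.648 in control mice). Of the 9 endothelial markers 6 were tested. Their sum ranged from 37.1 to 72.8 CPM in cdKO overload, 20.1 to 153 in control overload, 97.2 to 267 in cdKO sham, against 133 to 254 in control sham. The angiopoietin receptor Tek was lower in cdKO (-1.30 ± 0.37, edgeR adjusted p = 0.0228) and in control mice (-2.13 ± 0.38, adjusted p = 3.13e-04). Tie1, which passed in cdKO (edgeR adjusted p = 0.0255), reached the filter's 13.5 CPM in 0 of 6 overloaded and 3 of 6 sham libraries. Of 8 pericyte and smooth muscle markers 6 were tested, with Vtn lower in cdKO and Vtn and Steap4 lower in control mice. Among 11 progenitor markers 5 were lower and 2 higher in cdKO and 7 were lower and 2 higher in control mice, beside 6.68% lower and 6.37% higher of all tested genes in cdKO and 11.0% and 10.6% in control mice. Pdgfra, the gene of the sort, was lower with overload in cdKO (-1.09 ± 0.26, edgeR adjusted p = 0.00620) and did not pass in control mice (-0.48, adjusted p = 0.186). Of the 5 Schwann cell markers Pmp22, also made by other cells, was tested and was lower in cdKO (-0.83 ± 0.26, edgeR adjusted p = 0.0337) and in control mice (-1.05 ± 0.26, adjusted p = 0.00516), and the summed list ranged from 243 to 376 CPM in cdKO overload, 183 to 265 in control overload, 469.7 to 558 in cdKO sham, against 304 to 537 in control sham. The 4 erythroid markers summed to 0 to 1.12 CPM in cdKO overload, 12.3 to 281 in control overload, 3.67 to 129.5 in cdKO sham, against 0 to 4.50 in control sham, and of the 3 tested Hba-a2 passed in cdKO as lower (edgeR adjusted p = 0.0347). Hba-a2 reached the filter's 13.5 CPM in 1 of 6 overloaded and 2 of 6 sham libraries. The erythroid sums of cdKO sham replicates 1, 2 and 3 were 3.67, 116 and 129.5 CPM. Of 6 muscle stem cell and myoblast markers 2 were tested, and in control mice Msc was higher (1.61 ± 0.49, edgeR adjusted p = 0.0189) and Des lower (-1.35 ± 0.48, adjusted p = 0.0448), with 0 called in cdKO. Msc reached the filter's 13.5 CPM in 6 of 6 overloaded and 2 of 6 sham libraries. Des reached it in 2 of 6 overloaded and 6 of 6 sham libraries. Each was thus tested only through the load where it is high, and these values are a description. Of 7 myofibre markers 2 were tested and 0 passed in edgeR in either genotype, at adjusted p-values of 0.0881 or more, with Tnnt3 at an unadjusted p of 0.0291 in cdKO and 0.0245 in control mice. The macrophage, pan-leukocyte and endothelial sums were highest of their groups in cdKO overload replicate 2 (37.7, 39.0 and 72.8 CPM) and control overload replicate 1 (27.6, 39.6 and 153 CPM). These libraries also had the highest GTPase sums of their groups. In cdKO overload the T, NK and B cell sum was highest in replicate 1 (24.7 CPM) and the Schwann cell sum in replicate 3 (376 CPM). Whether these marker levels contribute to the GTPase values was not tested. Summed Y-linked genes were 64.9 and 68.9 CPM in control overload replicates 2 and 3 and 118 to 270.4 CPM in the other 10 libraries. With their share as a covariate 6 of the 8 GTPases were lower in cdKO and 5 in control mice. Both low libraries are of control overload, so the covariate and the load effect in control mice cannot be fully told apart.

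Outside the families, the 5 tested genes whose log2 CPM followed the mean standardised GTPase profile most closely over the 12 libraries were Abca6, Scara5, Gstm1, Smpdl3a and Aldh1a1, with Pearson correlations of 0.982, 0.975, 0.975, 0.974 and 0.973. Such likeness was not rare, as 251 of the 8153 other tested genes (3.08%) had a correlation of at least 0.9, and the 12 points share the contrast between loads. Within the 6 overloaded libraries the 5 genes had correlations of 0.78 to 0.91, and within the 6 sham libraries of 0.62 to 0.82. Scara5 encodes a ferritin receptor, Gstm1 a glutathione transferase and Aldh1a1 a retinaldehyde dehydrogenase.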

How the data were processed

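RNA was measured in 12 libraries of sorted progenitors, 3 in each of 4 groups, with a 3′ tag protocol of the CEL-Seq2 kind, per the labels' protocols. The authors deposited a table of raw read counts per gene, with gene identifiers. The upstream software was featureCounts 2.0.1, HISAT2 2.2.1, DESeq2 1.26.0 and Trim Galore 0.6.6 on the build GRCm38, per the submitters' processing notes. Not given in the sources used for this text are whether counting used strand, whether molecular identifiers were collapsed, the gene annotation and the floxed exons. Without strand, reads of a gene and of an antisense neighbour cannot be told apart, and without identifiers amplification copies count as separate reads.

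All 54100 identifiers matched the GENCODE M21 table used for gene names and coordinates. From the counts, edgeR 4.0.16 (R 4.3.3) gave TMM-scaled CPM (counts per 1000000 in tested genes), and its quasi-likelihood test, two-sided, with 1 mean per group over all 12 libraries and Benjamini-Hochberg adjustment over the 8161 genes that filterByExpr kept, at a threshold of 0.05. That filter asked for 13.5 CPM in at least 3 libraries. Errors of log2 fold changes are standard errors, and intervals are 95%. A floor of 3 counts corresponds to 1.95 to 9.72 CPM over the libraries, for counting error only. Alternatives were DESeq2 1.42.0, limma voom 3.58.1 with quality weights, DESeq2 size factors in edgeR, no filter, the replicate number as a block, the Y-linked share of counts as a covariate, only the groups compared, each library left out, and 2 pairs of libraries left out.

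The GTPases and all gene lists were chosen with earlier results of these data known, and so were the alternatives. Named genes are the 10 GTPases, up to 4 tested genes of each other list with the smallest p, defining genes that were not tested, the 5 genes most like the GTPase profile, and Yap1, Wwtr1 and Pdgfra as checks of the labels. 1 gene of the lists is counted but not reported here. Libraries of the same group were not copies of each other, with a chi-square of 3.39 to 23.4 per degree of freedom between their counts. On simulated counts of 8161 genes with 200 changed, the edgeR step found 82.7% of 4-fold and 22% of 2-fold changes for the comparison of loads in cdKO, and 78.3% of 4-fold and 15.7% of 2-fold changes in control mice. Of its calls, 6.82% in cdKO and 3.55% in control mice were of genes simulated without a change. In the data 1065 genes were called in cdKO and 1768 in control mice, more than the 200 changed in the simulation. The simulated shares therefore do not measure how many true changes were found in the data.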

Additional observations from a re-analysis of the deposited data

How the results depend on the processing

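The number of GTPases lower under overload was 4 to 7 in cdKO and 5 to 7 in control mice over all alternatives, and every fold change of a tested GTPase with overload stayed negative in both genotypes. Leaving out each library in turn gave 4 to 7 in cdKO and 6 to 7 in control mice. The number called by genotype or by the interaction was 0 under every alternative. Over all genes, the calls in control mice fell to 622 with the Y-linked covariate and to 712 without both control overload replicate 2 and control sham replicate 3, in place of 1768, were 2552 without both control overload replicate 1 and cdKO overload replicate 2, and ranged from 1060 (without control overload replicate 2) to 2508 with each library left out. In cdKO there were 702 with no filter, in place of 1065, 1583 without both control overload replicate 1 and cdKO overload replicate 2, and 423 to 1287 with each library left out (423 without cdKO overload replicate 3, 473 without cdKO overload replicate 1 and 551 without cdKO sham replicate 2). For genotype in overloaded muscle there were 17 with no filter, 21 without both control overload replicate 1 and cdKO overload replicate 2, 1 with only the groups compared and 1 to 34 with each library left out (34 without control overload replicate 1), in place of 3. In sham muscle there were 2 with DESeq2, limma voom, only the groups compared or without both control overload replicate 1 and cdKO overload replicate 2, 0 without both control overload replicate 2 and control sham replicate 3, and 0 to 1 with each library left out, in place of 1. The interaction had 1 with DESeq2, 10 with no filter, 4 without both control overload replicate 1 and cdKO overload replicate 2 and 0 to 1 with each library left out, in place of 0. Averaged over loads there were 2 with DESeq2 or limma voom, 4 with no filter and 1 to 2 with each library left out, in place of 1. The cause was not tested.

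Other calls that changed were Gbp7 in control mice with no filter (-0.99, edgeR adjusted p = 0.0878), the Y-linked covariate (-1.14, 0.192) or without both control overload replicate 2 and control sham replicate 3 (-0.73, 0.285), Irgm2 in control mice with the Y-linked covariate (-1.79, 0.1004), Ifi47 in cdKO with no filter (-1.10, 0.0772), and, with that covariate in cdKO, Igtp lost (-1.15, 0.0836) and Irgm2 gained (-1.55, 0.0457). The covariate also gave -2.34 for Gbp2, -2.55 for Iigp1 and -4.03 for Igtp in control mice, all still called. Signs turned only in comparisons of genotype where 0 GTPases passed. In overloaded muscle Irgm2 was -0.39 with the Y-linked covariate and -0.40 without both control overload replicate 2 and control sham replicate 3 (Igtp, 0.92), and Igtp was -0.020 and Ifi47 -0.10 without both control overload replicate 1 and cdKO overload replicate 2. In sham muscle Gbp3 was -0.049 without both control overload replicate 2 and control sham replicate 3. Averaged over loads, Gbp2 was -0.065, Irgm1 -0.074 and Igtp 0.34 with the covariate, and Gbp7 was -0.07 and Irgm1 -0.08 without both control overload replicate 2 and control sham replicate 3. With each library left out, values ranged from -0.41 to 0.51 for Irgm2, -0.31 to 0.61 for Ifi47 and -0.62 to 0.018 for Gbp7 in overloaded muscle, and from -0.04 to 0.34 for Gbp3 in sham muscle. Averaged over loads they ranged from -0.0085 to 0.36 for Gbp2, -0.11 to 0.28 for Gbp7, -0.26 to 0.30 for Irgm1 and -0.27 to 0.13 for Igtp.

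With the replicate number as a block, 6 GTPases were called in cdKO and 6 in control mice (1035 and 1752 of all genes), and 3, 1, 0 and 1 genes in overloaded muscle, sham muscle, the interaction and the average. Same-numbered libraries of different groups had correlations of -0.23 to 0.27, over 0.1 in 5 of 12 pairs. The labels do not say whether the numbers pair the libraries, and with 3 libraries per group these correlations cannot decide it. Gbp4 had too few counts to be tested. Tgtp2, which has no unique 3′ sequence, had 0 counts and was not tested either.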
